A study of Homo sapiens with 38 samples.

Results

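The nuclear genes of oxidative phosphorylation were taken as the protein-coding genes of hg38 whose symbols begin with NDUF, UQCR, ATP5 or COX followed by a digit, together with SDHA to SDHD, CYC1 and CYCS. The rule used names alone and found 109 of the 20033 protein-coding genes of the annotation: 46 for complex I, 4 for complex II, 10 for complex III, 28 for complex IV, 20 for complex V and cytochrome c itself. The study mapped chromatin occupancy by CUT&RUN, in which an antibody directs a nuclease to a protein on chromatin and the released DNA is sequenced. The cells were U-2 OS, a human osteosarcoma line, and every sample carried the same endogenous knock-in that tags SP1 with V5 and HaloTag, derived as a single homozygous clone. By the labels, every sample with or without a transgene had 1 µg/mL doxycycline for 36 h before cell sorting and 36 h after it. Doxycycline induced the transgenes at the AAVS1 locus, and each transgene carried a SNAP tag, 3 copies of FLAG and a nuclear localization signal.

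The 38 samples formed 19 groups of 2 replicates, and each group was represented by a single list of peaks that both replicates had contributed to. Anti-FLAG lists covered Sp1 WT (full length), Sp1 DBD (Sp1 without its long disordered N-terminal region, which leaves the zinc fingers and the short C-terminal end), EWS-Sp1 DBD (the disordered region of EWS in place of that of Sp1), CTCF DBD, and Sp1AD-CTCF DBD (the disordered activation region of Sp1 on the CTCF domain). Rabbit (rV5) and mouse (mV5) anti-V5 lists, which report the endogenous tagged Sp1, covered the line without a transgene (CTRL) and the Sp1 WT, Sp1AD-LacI and Sp1AD-CTCF DBD lines. The 6 remaining lists, named control-type here, were mouse (mAb) and rabbit (rAb) anti-FLAG in the line without a transgene and anti-FLAG in the SNAP-NLS, Sp1 mut, LacI and Sp1AD-LacI lines. Sp1 mut has a truncated zinc finger domain and LacI is a bacterial repressor. Lists held from 22 to 5151 peaks, and read numbers were not analysed here.

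Oxidative phosphorylation passes electrons from NADH through complex I, or from succinate through complex II, to coenzyme Q, and on through complex III, cytochrome c and complex IV to oxygen. Complex V, the ATP synthase, uses the resulting proton gradient to make ATP. Most of the subunits are encoded in the nucleus, and their promoters are known for sites of NRF-1, of ETS family factors such as GABP, of YY1 and of Sp1, which binds the GC box.

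Promoter stretches of 6 genes with a Sp1 WT FLAG peak and 4 without are shown as chosen examples of the letters counted below. They come from the RefSeq promoter table (GRCh38.p14), which held 87 of the 109 genes, and run 5′ to 3′ on the strand of the gene, limited to the longest part outside every annotated exon. Capitals mark matches on either strand to GGGCGG (the GC box) or its longer form GGGGCGGGG, which contains it, GCGCA followed by any base and GCGC (NRF-1), CCGGAAGT (ETS), AANATGGCG (YY1) and CCAAT (NF-Y). COX8A (chr11:63974370-63974619, plus strand), SDHB (chr1:17054033-17054282, minus strand), COX14 (chr12:50111986-50112081, plus strand), ATP5F1E (chr20:59032346-59032585, minus strand), ATP5MC1 (chr17:48892678-48892764, plus strand) and NDUFS8 (chr11:68030462-68030616, plus strand) had a Sp1 WT FLAG peak.
COX8A: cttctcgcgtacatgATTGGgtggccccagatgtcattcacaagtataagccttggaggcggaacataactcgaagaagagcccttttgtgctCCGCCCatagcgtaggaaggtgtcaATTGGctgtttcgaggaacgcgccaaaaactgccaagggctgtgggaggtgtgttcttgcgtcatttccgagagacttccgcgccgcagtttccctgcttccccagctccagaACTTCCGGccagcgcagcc
SDHB: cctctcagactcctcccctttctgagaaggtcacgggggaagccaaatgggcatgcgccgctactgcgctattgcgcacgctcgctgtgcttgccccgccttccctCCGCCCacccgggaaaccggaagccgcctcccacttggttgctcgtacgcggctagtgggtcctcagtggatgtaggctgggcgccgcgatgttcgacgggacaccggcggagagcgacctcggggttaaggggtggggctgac
COX14: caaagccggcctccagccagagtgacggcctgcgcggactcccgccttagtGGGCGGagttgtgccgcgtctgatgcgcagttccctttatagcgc
ATP5F1E: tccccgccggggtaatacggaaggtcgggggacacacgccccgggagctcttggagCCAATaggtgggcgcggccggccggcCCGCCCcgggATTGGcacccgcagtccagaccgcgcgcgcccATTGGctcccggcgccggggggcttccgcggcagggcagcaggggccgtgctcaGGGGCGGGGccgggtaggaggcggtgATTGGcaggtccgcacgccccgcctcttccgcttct
ATP5MC1: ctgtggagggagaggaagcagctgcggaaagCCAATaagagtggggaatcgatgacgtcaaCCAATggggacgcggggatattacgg
NDUFS8: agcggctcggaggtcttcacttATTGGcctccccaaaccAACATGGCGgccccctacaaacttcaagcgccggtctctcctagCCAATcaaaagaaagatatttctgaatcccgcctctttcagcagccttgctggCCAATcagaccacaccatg
The Sp1 WT FLAG summit, the base of highest signal in a peak, lay at base 22 of the COX8A stretch, base 58 for SDHB, base 15 for COX14, base 112 for ATP5F1E and base 79 for NDUFS8. SDHA (chr5:218154-218297, plus strand), NDUFB4 (chr3:120596086-120596327, plus strand), UQCRFS1 (chr19:29213152-29213234, minus strand) and CYCS (chr7:25125261-25125510, minus strand) had no peak in any list.
SDHA: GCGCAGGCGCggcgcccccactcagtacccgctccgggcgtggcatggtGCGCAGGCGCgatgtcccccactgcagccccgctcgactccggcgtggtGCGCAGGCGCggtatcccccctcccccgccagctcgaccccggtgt
NDUFB4: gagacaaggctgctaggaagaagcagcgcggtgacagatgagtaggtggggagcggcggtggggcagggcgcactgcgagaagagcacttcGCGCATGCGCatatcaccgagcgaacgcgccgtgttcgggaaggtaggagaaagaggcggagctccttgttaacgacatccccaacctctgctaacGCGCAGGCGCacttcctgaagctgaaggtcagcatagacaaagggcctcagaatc
UQCRFS1: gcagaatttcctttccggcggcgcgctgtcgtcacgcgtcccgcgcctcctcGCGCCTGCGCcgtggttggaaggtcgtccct
CYCS: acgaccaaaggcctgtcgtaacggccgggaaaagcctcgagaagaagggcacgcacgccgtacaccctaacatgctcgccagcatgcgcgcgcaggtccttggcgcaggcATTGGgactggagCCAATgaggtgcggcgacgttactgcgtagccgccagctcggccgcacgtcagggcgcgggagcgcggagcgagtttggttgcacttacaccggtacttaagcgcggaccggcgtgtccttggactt
The SDHA stretch held 3 NRF-1 matches and the NDUFB4 stretch 2, while none was found in the 6 stretches with a peak. The genes were chosen as examples, so this contrast does not describe occupied and unoccupied promoters in general. NDUFA11, which was occupied and held an NRF-1 match in the promoter counted below, was not among them.

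A gene was counted as occupied in a list when a peak came within 1000 bp of any of its annotated transcript starts. In the Sp1 WT FLAG list 24 of the 109 genes were occupied (22.0%), and 23.7% of all protein-coding genes were. In the Sp1 DBD list 12 genes (11.0%) were occupied, beside 16.1% of all genes. In the EWS-Sp1 DBD list 9 genes (8.26%) were, beside 11.1%. As a whole, then, the respiratory genes were occupied about as often as protein-coding genes in general by full-length Sp1. Their shares for the domain constructs were a few percentage points under the background. With every list limited to its 1332 strongest peaks, the shares were 5.5% beside 7.1% for Sp1 WT FLAG and 5.5% beside 6.93% for Sp1 DBD. For EWS-Sp1 DBD the share was then 1.83% beside 6.15%, on 2 genes. Without genes that have a divergent neighbour, defined below, the shares were 12.5% beside 13.6% for Sp1 DBD and 9.38% beside 9.62% for EWS-Sp1 DBD. No test was made, since a group had 1 list and genes are not replicates.

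The endogenous protein gave the same picture. With rabbit anti-V5, 11 genes (10.1%) were occupied in CTRL beside 10.4% of all genes, 9 (8.26%) in the Sp1 WT line beside 8.66%, 14 (12.8%) in the Sp1AD-LacI line beside 11.1% and 12 (11.0%) in the Sp1AD-CTCF DBD line beside 11.1%. With mouse anti-V5 the corresponding counts were 11 (10.1%) beside 9.75%, 8 (7.34%) beside 6.81%, 8 (7.34%) beside 8.80%, and 6 (5.50%) beside 7.34%. None of these shares lay far from its background. All lists came from the same knock-in clone and were called against pooled controls, so that they are not independent of each other. The CTCF DBD list held 1 of the genes (0.917%, beside 1.88% of all genes), the Sp1AD-CTCF DBD FLAG list 0 (beside 0.574%) and the 6 control-type lists 0 (in any of them, beside 0.00499%).

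**Figure D1:**
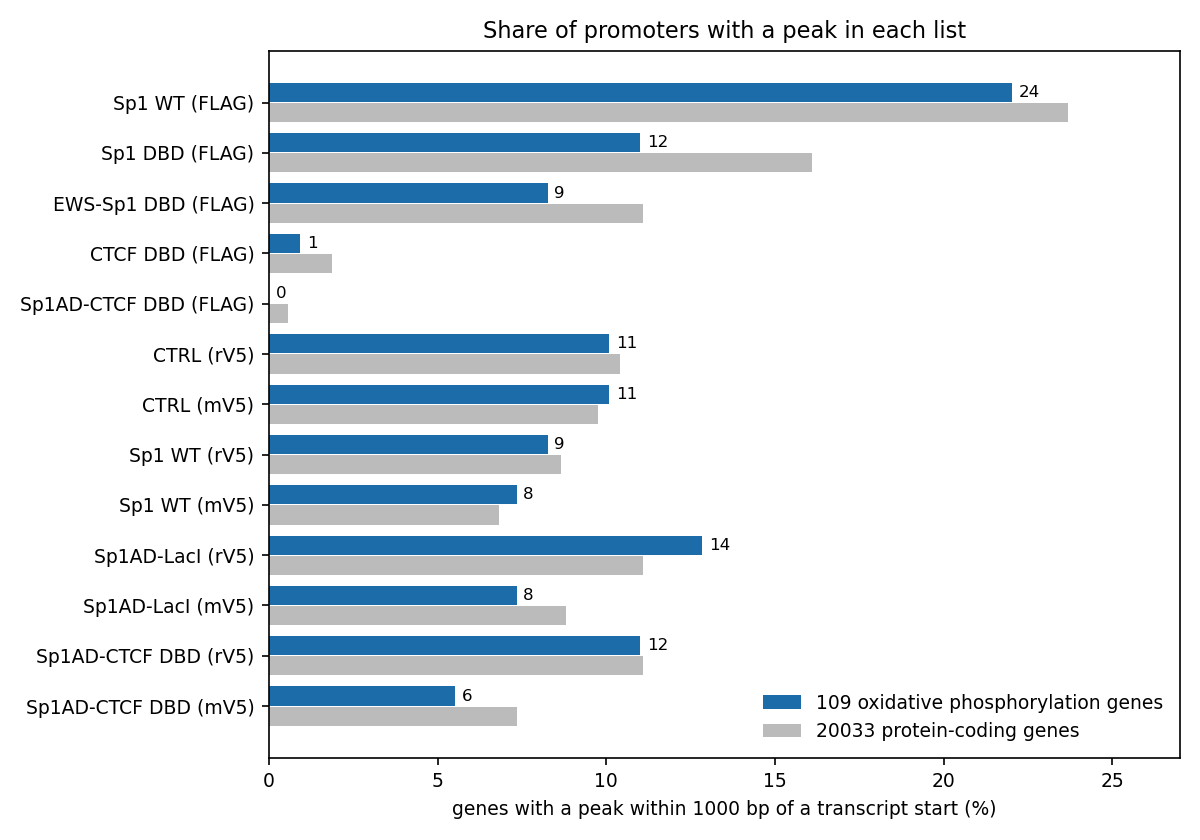
Share of genes (%) with a peak within 1000 bp of a transcript start in each of 13 lists, for the 109 oxidative phosphorylation genes (blue, with their number) and all 20033 protein-coding genes (grey). The blue bar is the longest for Sp1 WT FLAG at 24 genes and stays close to the grey bar in most lists.

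Occupied genes were also counted by complex. Most complexes have few genes, and no difference between them was tested. In the Sp1 WT FLAG list, where 23.7% of all genes were occupied, complexes I, II and V lay near that share. Complex IV had 9 of 28 genes (32.1%), complex V 5 of 20 (25.0%), complex I 9 of 46 (19.6%) and complex II 1 of 4. Complex III had 0 of 10 and cytochrome c was not occupied. By role, 7 of 25 core subunits were occupied, 10 of 53 supernumerary subunits, 5 of 17 assembly factors and 2 of 10 tissue-restricted or paralogous isoforms, against the same 23.7% of all genes. Over all lists 27 genes had a peak at least once (24.8%, beside 29.6% of all genes) and 82 had none.

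**Figure D2:**
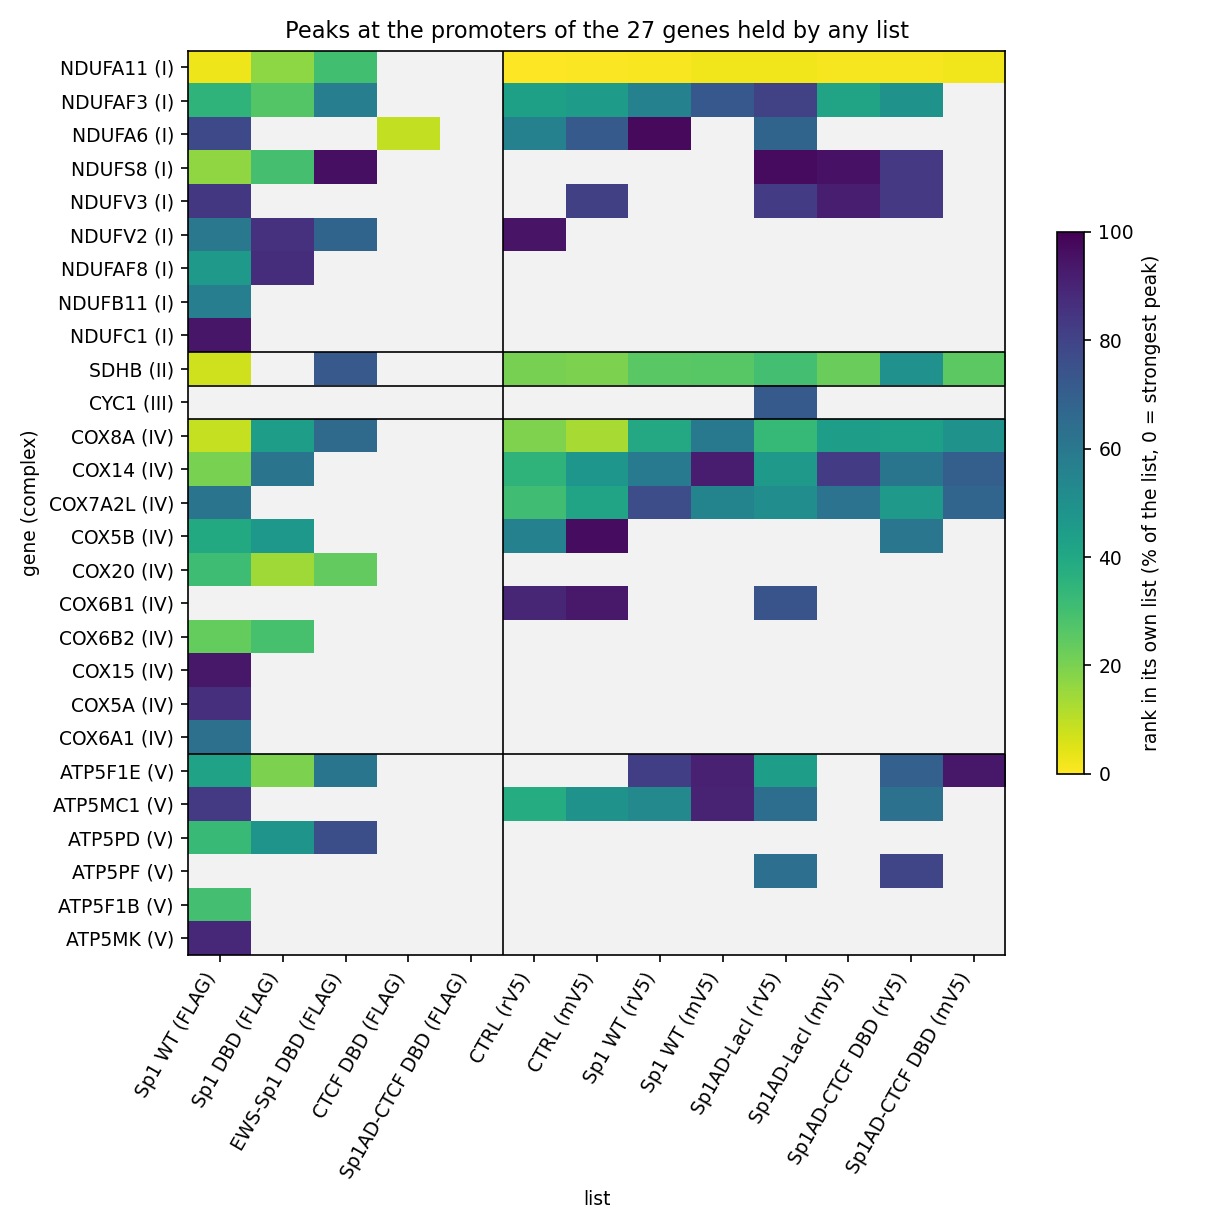
Peaks at the 27 genes held by any list, grouped by complex (rows), in 13 lists (columns); colour gives the rank of the peak in its own list as a percent of that list, 0 being the strongest peak, and pale grey means no peak. Rows for NDUFA11, SDHB, COX8A, COX14 and COX7A2L are filled across all 8 anti-V5 columns, and many other rows are filled in the left-most column only.

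For complex I, the NADH dehydrogenase, the strongest entry was the peak assigned to NDUFA11, an accessory subunit of the membrane arm, at chr19:5903794-5905003. Its −log10 p, MACS's measure of peak strength in a replicate, was 66.7 and 114 in the 2 replicates of Sp1 WT FLAG, rank 131 of 5151. In CTRL mV5 the values were 175 and 243, rank 9 of 1830. This peak ranked among the strongest of each anti-V5 list, but its summit lay 577 bp from the nearest NDUFA11 start, 289 bp from a start of VMAC and 258 bp from one of ENSG00000267314. It can therefore not be assigned to NDUFA11 alone.

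Among the catalytic core of complex I, NDUFS8 and NDUFV2, both iron-sulfur subunits, were occupied. At NDUFS8 the replicate values were 35.1 and 58.0 in Sp1 WT FLAG, with the summit 77 bp from a start. NDUFV2 had 16.1 and 34.3. Both genes were also in the Sp1 DBD and EWS-Sp1 DBD lists, whereas the core subunits NDUFS1, NDUFS3, NDUFS7 and NDUFV1 had no peak in any list. The assembly factor NDUFAF3 was in 10 lists, with 23.6 and 56.1 in Sp1 WT FLAG and 26.5 and 56.4 in CTRL mV5. NDUFAF8, another assembly factor, had 19.8 and 38.9 in Sp1 WT FLAG and was otherwise held by Sp1 DBD alone. Accessory subunits NDUFA6 (12.4 and 32.9), NDUFV3 (11.3 and 18.9), NDUFB11 (16.8 and 23.5) and NDUFC1 (9.54 and 23.9) had weaker peaks, all below the middle of the Sp1 WT FLAG list in rank.

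Complex II, succinate dehydrogenase, had a peak at 1 of its 4 subunit genes (25.0%, beside 23.7% of all genes in Sp1 WT FLAG), too few for a statement on the complex. SDHB, the iron-sulfur subunit, had replicate values of 49.8 and 74.3 in Sp1 WT FLAG, rank 378 of 5151, at chr1:17053895-17054655. In CTRL it had 40.5 and 61.4 with rV5 and 52.6 and 114 with mV5. SDHB was held by all 8 anti-V5 lists and by EWS-Sp1 DBD (12.9 and 22.8), but not by Sp1 DBD. SDHA, the flavoprotein, and the membrane anchors SDHC and SDHD had no peak in any of the 19 lists.

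Complex III, the coenzyme Q to cytochrome c reductase, had no gene occupied in Sp1 WT FLAG. Its only entry in any list was CYC1, cytochrome c1, in the Sp1AD-LacI rV5 list, with 13.5 and 24.4, and the nearest Sp1 WT FLAG peak was 7055 bp from a CYC1 start. No peak was assigned to UQCRFS1, the Rieske protein, to the large subunits UQCRC1 and UQCRC2, to UQCRB, UQCRH, UQCRQ, UQCR10 and UQCR11, or to the UQCRH paralog UQCRHL. CYCS, the mobile electron carrier, had none either.

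Complex IV, cytochrome c oxidase, had the largest share of its genes occupied in Sp1 WT FLAG (32.1%, beside 23.7% of all genes) and in Sp1 DBD. In Sp1 DBD this was 5 of 28 (17.9%), near the 16.1% of all genes. In EWS-Sp1 DBD it had 2 of 28 (7.14%, beside 11.1%), under complexes I (8.70%), II and V (10.0%). In the anti-V5 lists it had 3 to 5 of 28 (10.7% to 17.9%, beside 6.81% to 11.1% of all genes). Complex II had 1 of 4 in each of them. COX8A, a small accessory subunit expressed in most tissues, was in 11 lists, with 46.6 and 66.6 in Sp1 WT FLAG and 71.4 and 67.1 in CTRL mV5, and its paralog COX8C had no peak. COX14, which guards newly made COX1, had 31.9 and 63.3 in Sp1 WT FLAG, 27.5 and 29.8 in CTRL rV5, and was in 10 lists. COX7A2L, a factor of respiratory supercomplexes, had 15.8 and 28.0 in Sp1 WT FLAG, was held by all 8 anti-V5 lists and appeared in neither Sp1 DBD nor EWS-Sp1 DBD. Its relatives COX7A1 and COX7A2 had no peak.

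The other complex IV genes appeared in fewer lists. COX20, a chaperone of COX2, had 25.5 and 45.3 in Sp1 WT FLAG, was in Sp1 DBD and EWS-Sp1 DBD, and was in no anti-V5 list. COX5B, which binds zinc, was in 5 lists including both CTRL anti-V5 lists, and COX5A was in Sp1 WT FLAG alone (10.8 and 21.5). COX6B2, the testis isoform, was occupied in Sp1 WT FLAG (29.0 and 60.8) and Sp1 DBD, whereas its widely expressed paralog COX6B1 had peaks in the CTRL rV5, CTRL mV5 and Sp1AD-LacI rV5 lists only. The COX6B2 summit lay 595 bp downstream of its canonical start, in an exon of COX6B2 and in a UTR of the overlapping gene ENSG00000267706. COX6A1 (15.5 and 19.9) was occupied and its muscle paralog COX6A2 was not, while both COX4I1 and COX4I2 lacked peaks. COX15, an enzyme of heme A synthesis, had 9.66 and 18.9.

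For complex V, ATP5F1E, the epsilon subunit of the rotor, was in 8 lists, with 20.9 and 53.3 in Sp1 WT FLAG and 27.6 and 33.7 in Sp1 DBD. ATP5F1B, the catalytic beta subunit, had 25.8 and 36.7 in Sp1 WT FLAG and was in no other list, and its partner ATP5F1A had no peak. The c ring is encoded by 3 genes whose mature protein is the same: ATP5MC1 was in 7 lists (11.3 and 27.5 in Sp1 WT FLAG), ATP5MC2 and ATP5MC3 in none. ATP5PD of the peripheral stalk (24.9 and 35.9) and ATP5MK (10.3 and 26.9) were in Sp1 WT FLAG. ATP5PF, also of that stalk, was seen with endogenous Sp1 only, in the Sp1AD-LacI rV5 (15.3 and 34.6) and Sp1AD-CTCF DBD rV5 lists. It shares its start region with GABPA, which encodes a subunit of GABP and was held by the same 2 lists through the same peaks. The summits lay nearer to GABPA, at 7 bp against 48 bp in Sp1AD-LacI rV5 and 20 bp against 35 bp in Sp1AD-CTCF DBD rV5. Occupancy of ATP5PF can therefore not be told apart from that of GABPA.

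**Figure D3:**
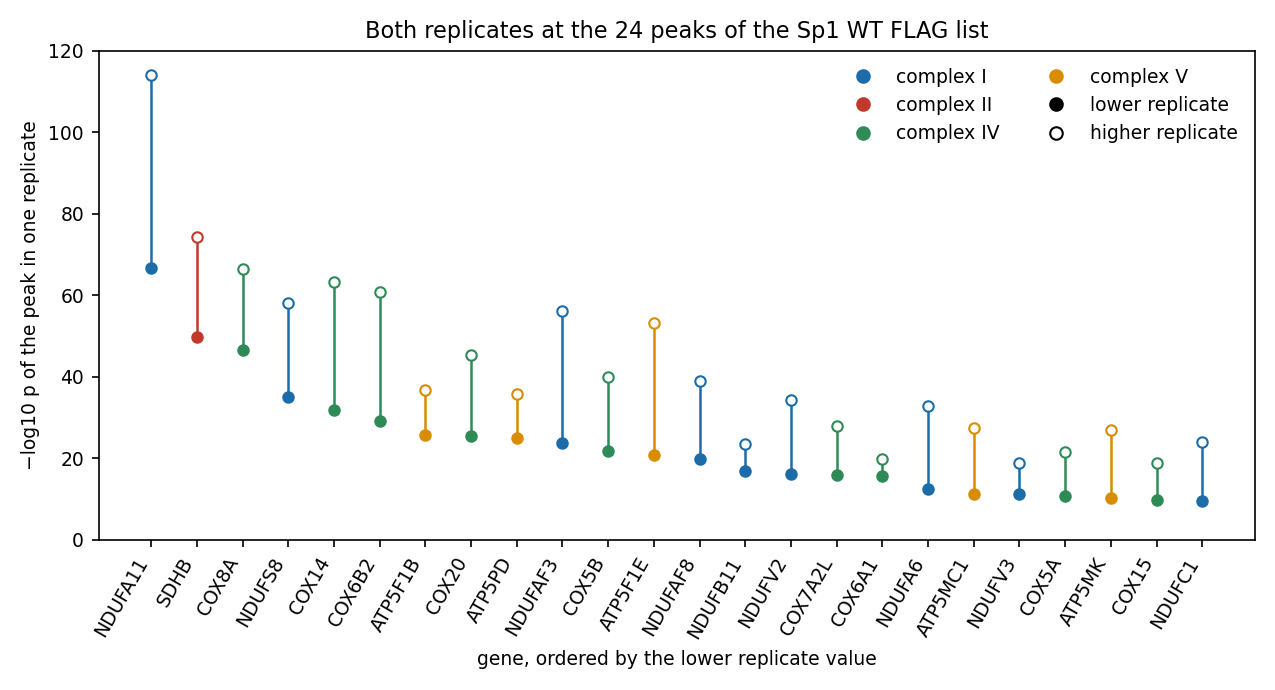
The −log10 p of each replicate (filled, lower; open, higher) at the 24 peaks of Sp1 WT FLAG assigned to oxidative phosphorylation genes, ordered by the lower value and coloured by complex. NDUFA11, SDHB and COX8A lead, and the lower values run from 9.54 to 66.7.

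Replicates differed at these peaks, in 1 direction. The lower value had a median of 20.4 and the higher of 36.3 in Sp1 WT FLAG, and the lower came from the same replicate at all 24 peaks. Which labelled replicate that was is not given. The same replicate was also the lower at nearly all Sp1 WT FLAG peaks of the further genes read below, where CMC1 went the other way. The order was thus not particular to these peaks, and the rest of the list was not read for it. The median respiratory peak stood at 44.3% of the Sp1 WT FLAG list in rank, and that of all genes with a peak at 45.2%. In the Sp1 DBD list the medians were 36.9% and 47.3%, in EWS-Sp1 DBD 65.3% and 46.9%, in CTRL rV5 38.0% and 47.1% and in CTRL mV5 47.7% and 48.0%. In the transgenic lines the median respiratory peak of endogenous Sp1 stood lower in the list than that of all genes. These medians rest on only 6 to 14 respiratory genes per list, and an effect of the transgenes was not tested. The medians were 55.9% and 46.8% in Sp1 WT rV5, 65.9% and 49.4% in Sp1 WT mV5, 63.7% and 48.2% in Sp1AD-LacI rV5 and 52.9% and 48.2% in Sp1AD-LacI mV5. In the Sp1AD-CTCF DBD line they were 60.8% and 47.6% with rV5 and 58.1% and 47.9% with mV5.

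Among the 24 genes of Sp1 WT FLAG, 8 were in both domain lists: ATP5F1E, ATP5PD, COX20, COX8A, NDUFA11, NDUFAF3, NDUFS8 and NDUFV2 (7.34% of the 109, beside 7.67% of all genes). Another 11 were in neither (10.1%, beside 9.49%). None of the 109 genes was occupied in Sp1 DBD or EWS-Sp1 DBD without being occupied in Sp1 WT, a pattern found in 3.15% and 2.17% of all genes. The 3 genes seen with anti-V5 but not with Sp1 WT FLAG were ATP5PF, COX6B1 and CYC1 (2.75%, beside 2.70%). The 5 genes held by Sp1 WT FLAG and by all 8 anti-V5 lists were COX14, COX7A2L, COX8A, NDUFA11 and SDHB (4.59%, beside 3.55%), and no further respiratory gene was in all 8 anti-V5 lists, where 4.22% of all genes were. With at least 10 of the 19 lists, COX8A, NDUFA11, COX14, NDUFAF3 and SDHB were the most widely occupied respiratory genes (4.59%, beside 4.14%).

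NDUFA6, an accessory subunit of complex I, was the gene in the CTCF DBD list. That peak had 15.8 and 26.2, rank 59 of 649, and its summit lay 338 bp upstream of the canonical start. The Sp1 WT FLAG summit of the same gene lay 97 bp upstream, and no Sp1AD-CTCF DBD FLAG peak was assigned to it.

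All 24 Sp1 WT FLAG peaks covered a transcript start of their gene. The next nearest peaks belonged to COX7B (3529 bp away), ATP5F1D (4057 bp) and ATP5MGL (4393 bp), so that no gene lay near the 1000 bp limit. The summit was upstream of the canonical start at 21 of the 24 genes (87.5%, beside 74.0% of all genes with a peak) and within 250 bp of it at 18 (75.0%, beside 60.4%). By annotation, 14 summits lay outside protein-coding genes, 6 in a UTR, 2 in another exon and 1 in an intron of the gene itself, and the COX15 summit was in an intron of the neighbouring CUTC.

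Several peaks served more than 1 gene. At 9 of the 24 peaks another protein-coding gene also had a start in reach, and at 6 the summit was nearer to that start. These 6 were NDUFA11, COX15 (106 bp from its own start, 1 bp from CUTC), NDUFC1 (461 bp, and 103 bp from NAA15), NDUFB11 (361 bp, and 150 bp from RBM10), ATP5MK (86 bp, and 48 bp from PDCD11) and NDUFAF8 (111 bp, and 103 bp from TEPSIN). Occupancy of these 6 cannot be told apart from occupancy of the neighbour. The other 18 summits were nearer to a start of the respiratory gene, among them SDHB at 193 bp and COX8A at 229 bp.

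**Figure D4:**
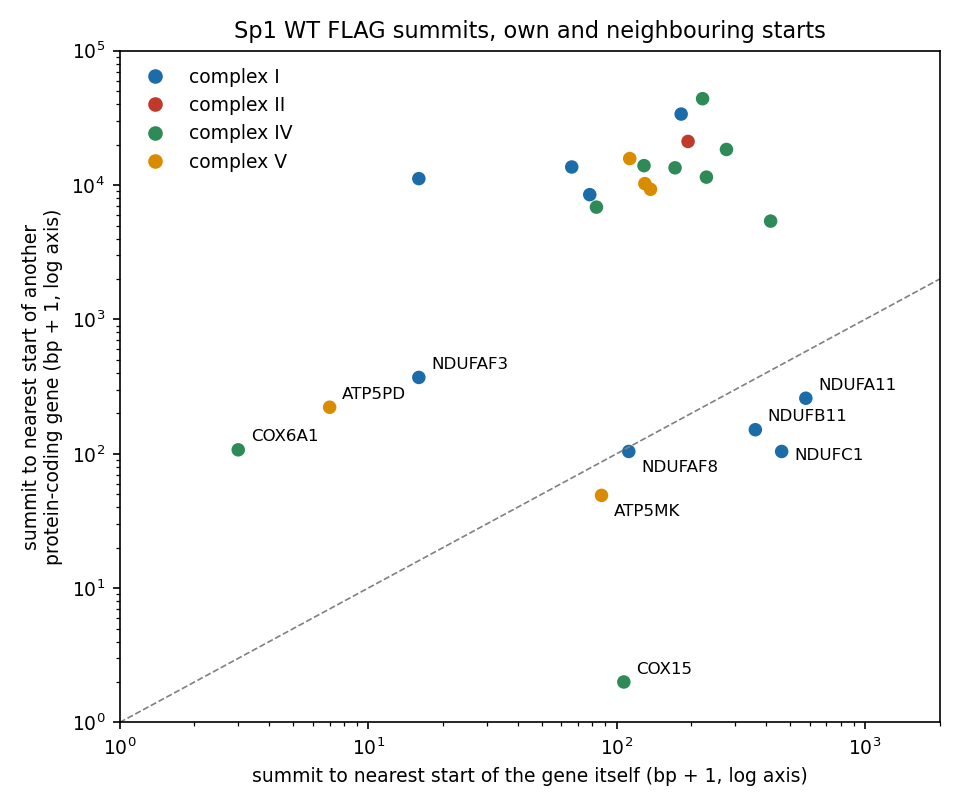
Distance from the Sp1 WT FLAG summit to the nearest start of the gene itself (horizontal) and of another protein-coding gene (vertical), in bp plus 1 on log axes, for the 24 occupied genes, coloured by complex; the dashed line marks equal distances. NDUFA11, NDUFB11, NDUFC1, NDUFAF8, ATP5MK and COX15 lie under the line, nearer to the neighbour.

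Starts of another gene close by on the other strand were common among the respiratory genes. A protein-coding start on the other strand within 1000 bp was annotated for 45 of the 109 genes (41.3%) and for 17.7% of all protein-coding genes. Of these 45, 9 were occupied in Sp1 WT FLAG (20.0%), beside 40.3% of all divergent genes. Of the other 64, 15 were occupied (23.4%), beside 20.1%. The rule used any annotated start and did not ask that the 2 genes point away from each other. With 1 start per gene, 32 respiratory genes were divergent, of which 6 were occupied (18.8%, beside 40.3%). NDUFV3 was among the 9, although the start of its neighbour WDR4 lay 13635 bp from the Sp1 WT FLAG summit. In CTRL rV5 the divergent genes had 2 of 45 (4.44%, beside 21.2%) and the others 9 of 64 (14.1%, beside 8.12%). In CTRL mV5 the counts were 3 of 45 (6.67%, beside 19.7%) and 8 of 64 (12.5%, beside 7.61%). For divergent genes the share of respiratory genes was the lower of the pair in all 13 lists. The remaining divergent counts were 4 in Sp1 DBD (beside 27.5%), 3 in EWS-Sp1 DBD (18.1%), 0 in CTCF DBD (3.30%) and Sp1AD-CTCF DBD FLAG (1.44%), 2 in Sp1 WT rV5 (18.2%) and mV5 (13.3%), 4 and 3 in Sp1AD-LacI rV5 and mV5 (22.1% and 17.1%), and 4 and 1 in Sp1AD-CTCF DBD rV5 and mV5 (22.2% and 14.7%). Among the 64 others the counts were 8 in Sp1 DBD (beside 13.6%), 6 in EWS-Sp1 DBD (9.62%), 1 in CTCF DBD (1.57%), 0 in Sp1AD-CTCF DBD FLAG (0.388%), 7 and 6 in Sp1 WT rV5 and mV5 (6.61% and 5.4%), 10 and 5 in Sp1AD-LacI (8.68% and 7.02%), and 8 and 5 in Sp1AD-CTCF DBD (8.69% and 5.74%). These lists share cells and controls, and the difference was not tested. SDHA with CCDC127, SDHD with TIMM8B, NDUFS3 with KBTBD4 and UQCRH with LRRC41 are such pairs without a peak, and NDUFAF3 with DALRD3 is one with a peak in 10 lists.

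Motifs were counted in hg38 from 250 bases before the canonical start to 50 bases from it, which gave a promoter for all 109 genes and for 20032 of the 20033. A GC box was found in 59.6% of respiratory promoters and in 61.3% of all promoters, and the longer form in 13.8% and 24.5%. NRF-1 matches were found in 22.0% and 8.40%, ETS in 14.7% and 6.14%, YY1 in 24.8% and 4.98%, and CCAAT in 33.0% and 36.1%. NRF-1, ETS and YY1 letters were thus found in a larger share of respiratory promoters than of all promoters. A GC box was as common, but promoters with several were fewer, since 3 or more were found in 8 of 109 respiratory promoters and in 4954 of all 20032.

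Respiratory genes with a GC box were occupied more often than those without, as were all genes. Of the 65 respiratory promoters with a GC box 19 were occupied in Sp1 WT FLAG (29.2%, beside 32.6%), and of the 44 without, 5 were (11.4%, beside 9.57%). With 3 or more GC boxes, 5 of 8 were occupied in Sp1 WT FLAG (62.5%, beside 40.1%) and 4 in Sp1 DBD (50%, beside 32.4%). Of the same 8 genes, 2 were occupied in CTRL rV5 (25%, beside 18.3%) and 1 in CTRL mV5 (12.5%, beside 18.2%). For endogenous Sp1 the share with a GC box was 12.3% and without one 6.82% in both CTRL anti-V5 lists, where all genes had 14.6% and 3.88% with rV5 and 13.8% and 3.34% with mV5. The 5 genes occupied without a GC box in that window were ATP5F1B, ATP5MC1, COX15, NDUFA11 and NDUFS8, of which ATP5F1B, ATP5MC1 and NDUFS8 held 4 CCAAT matches each. Within 100 bp of the summit itself, 15 of the 24 peaks held a GC box (62.5%, beside 75.0% of peaks at all genes), as the GC boxes of the printed COX8A and COX14 stretches show. The respiratory share was the higher in Sp1 DBD (83.3%, beside 78.0%), EWS-Sp1 DBD (88.9%, beside 79.0%) and Sp1 WT rV5 (88.9%, beside 84.5%). It was the lower in the remaining lists with a respiratory peak.

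Respiratory genes with NRF-1 letters close to the start were seldom occupied, by a count that moved with the window. Of the 24 whose promoter held a match, 1 was occupied in Sp1 WT FLAG (4.17%), beside 32.1% of all genes with a match. With 1000 bases before the start and 250 from it, a window added after seeing the data, 4 of 31 were occupied (12.9%, beside 34.7%). The exception in the shorter window was NDUFA11, whose summit was nearer to its neighbours. Of the 85 without a match, 23 were occupied (27.1%), beside 22.9%. The 23 unoccupied genes with a match had no peak in any list. They included SDHA and SDHD of complex II, UQCRFS1, UQCRC1, UQCRB, UQCR10 and UQCR11 of complex III, NDUFA3, NDUFA8, NDUFA9, NDUFA12 and NDUFB4 of complex I, COX17, COX18 and COX6C of complex IV, and ATP5F1C, ATP5F1D, ATP5PO and ATP5ME of complex V. SDHA and NDUFB4, printed above, show the repeated decamer. Where a GC box accompanied the NRF-1 letters, 0 of 8 respiratory genes were occupied, beside 35.7% of all such genes. Of the 24 genes with NRF-1 letters 11 had a divergent neighbour, whose part in this count was not tested, and the motif was picked out after its values were seen.

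CCAAT, the core of the NF-Y site, showed the opposite order. It was found at 36 respiratory promoters, of which 15 were occupied in Sp1 WT FLAG (41.7%, beside 28.6% of all genes with it), and of the 73 without it 9 were occupied (12.3%, beside 20.9%). With a GC box and CCAAT together 12 of 20 were occupied (60%, beside 41.3%), and with a GC box alone of the pair 7 of 45 (15.6%, beside 28.0%). ATP5F1E, COX8A and NDUFA6 held both. With CCAAT and no GC box 3 of 16 were occupied (18.8%, beside 10.5%), and CYCS, with its pair of matches in the printed stretch, was among those without a peak. Promoters with CCAAT had 7 of 36 in Sp1 DBD (19.4%, beside 18.4%), 6 in CTRL rV5 (16.7%, beside 15%) and 7 in CTRL mV5 (19.4%, beside 13.7%). Those without CCAAT had 5 of 73 in Sp1 DBD (6.85%, beside 14.7%), 5 in CTRL rV5 (6.85%, beside 7.85%) and 4 in CTRL mV5 (5.48%, beside 7.5%). A GC box alone of the pair gave 4 of 45 in Sp1 DBD (8.89%, beside 20.5%), 4 in CTRL rV5 (8.89%, beside 10.4%) and 3 in CTRL mV5 (6.67%, beside 10.1%). With both a GC box and CCAAT, 6 of 20 were occupied in Sp1 DBD (30%, beside 27.6%), 4 in CTRL rV5 (20%, beside 22.5%) and 5 in CTRL mV5 (25%, beside 20.7%). YY1 letters were at 27 promoters, 8 of them occupied (29.6%, beside 32.6%), and ETS letters at 16, 5 of them occupied (31.2%, beside 29.2%).

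**Figure D5:**
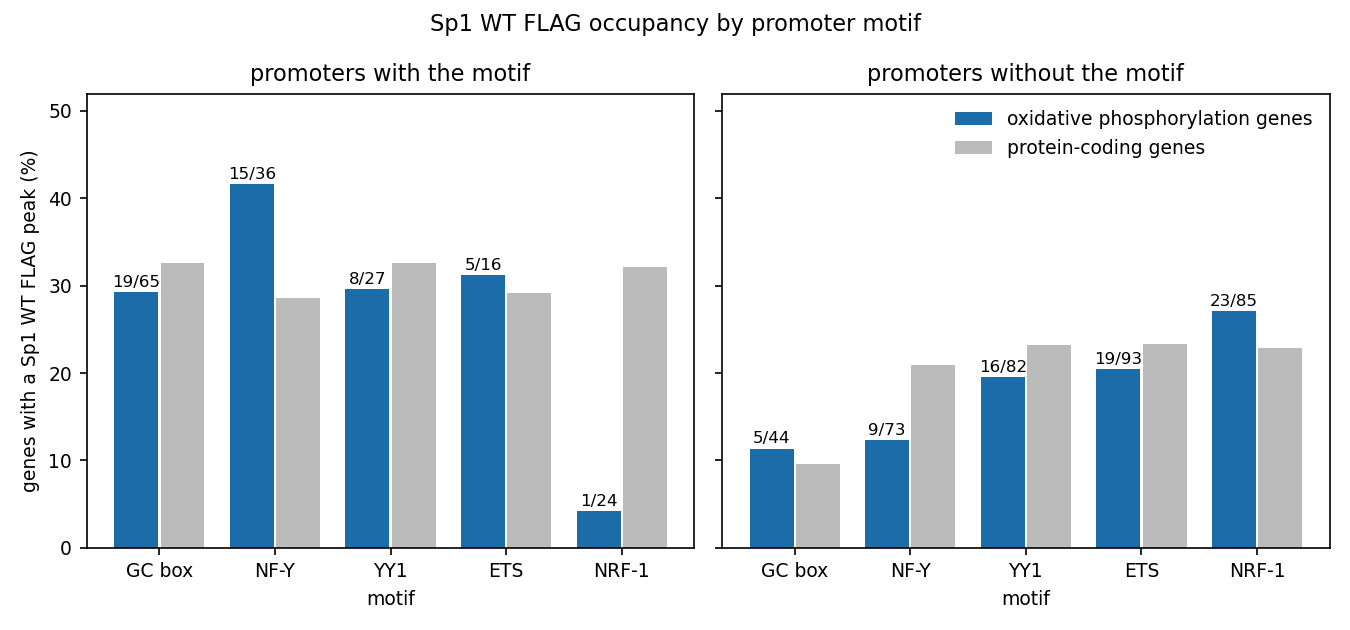
Share of genes (%) with a Sp1 WT FLAG peak among promoters with (left) and without (right) each motif, for respiratory genes (blue, with occupied over total) and all protein-coding genes (grey). The pair for NRF-1 on the left differs most, at 1 of 24 respiratory genes, and the pair for NF-Y shows the opposite order.

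A further 87 genes that serve respiration without bearing these names were read in the same way. In Sp1 WT FLAG 25 were occupied (28.7%, beside 23.7%), in Sp1 DBD 20 (23.0%, beside 16.1%), in EWS-Sp1 DBD 9 (10.3%, beside 11.1%), in CTRL rV5 18 (20.7%, beside 10.4%) and in CTRL mV5 15 (17.2%, beside 9.75%). In the citric acid cycle CS, FH, IDH3A and OGDH were among the genes occupied in Sp1 WT FLAG and in both CTRL anti-V5 lists. OGDH, the 2-oxoglutarate dehydrogenase, had 50.7 and 56.3, and FH, fumarase, which takes the product of complex II, had 22.7 and 58.3. In coenzyme Q synthesis 5 of 13 were occupied, led by COQ6 (62.6 and 95.7). Of the assembly factors not named by the rule, those of complex I had 3 of 12 (DMAC2, ECSIT and TMEM126B), complex II 0 of 4, complex III 3 of 9, complex IV 5 of 19 and complex V 2 of 4 in Sp1 WT FLAG. SDHAF1 and SDHAF2, both assembly factors of complex II, had a peak in Sp1 DBD without one in Sp1 WT FLAG. Complex III thus had occupied assembly genes, BCS1L, LYRM7 and UQCC5, although its subunit genes had none in that list. Of 13 nuclear regulators, ESRRA (64.6 and 87.9) and TFAM (8.87 and 25.1) were occupied in Sp1 WT FLAG.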

How the data were processed

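CUT&RUN peaks were analysed from 19 deposited lists, 1 for each group of 2 replicates. Per the methods and the submitters' processing notes, adapters were cut with cutadapt 2.6, reads were mapped on hg38 by Bowtie2 2.3.5.1 and SAMtools 1.9 took out duplicates. Each replicate then went through MACS3 with pooled control replicates as background, and both replicates went through IDR, the irreproducible discovery rate, with 0.1 as the highest value kept. The authors' −log10 p, as deposited for each replicate and for the merged peak (the smaller of the pair), is printed by list and was ranked within a list. It grows with depth (read numbers were not analysed here), so values of different lists are not compared in size. A deposited score, −log10 of the IDR as the authors' run gave it, was used for stricter lists. Another 6 deposited tables hold the authors' own differential comparisons and were not used.

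Peaks were joined to transcript starts of protein-coding genes in GENCODE 44, leaving out the mitochondrial genome. Occupied means a gap of at most 1000 bp from any start to the nearest base of a peak. Divergent means a start of another protein-coding gene on the other strand within 1000 bp. Scripts used Python 3.11.15, numpy 2.4.6 and pandas 2.3.3 and were tested on planted peaks and motifs. Groups were taken from the labels. No test was run, because the lists merge their replicates and no list exists per replicate.

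The members, pathway lists and tests were chosen with earlier results of these data known. Genes named with values are the 10 highest ranked in Sp1 WT FLAG, those in most lists, those found by another construct or antibody only, all complex II subunits, CYC1, CYCS, isoforms beside their paralogs, those nearest the distance limit and those with no peak; further occupied genes and the motif groups were named after their values were seen. Alternatives varied the IDR, the distance, the starts, the peaks and the members. Some genes are not reported here by name.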

Additional observations from a re-analysis of the deposited data

How the results depend on the processing

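Of the counts recomputed under the settings chosen at the start, 17 moved by more than 1.5 times and 137 did not, though lists with 0 or 1 of the genes could hardly move. Of the settings added after seeing the data, 1 moved a count and 14 did not. Unmoved were all counts with an IDR of at most 0.05, with distances of 500 or 5000 bp, with summits in place of edges, with 1 start per gene and without assembly factors. With an IDR of at most 0.01 the counts that moved fell, as did the shares of all genes. They fell to 14 of 109 genes in Sp1 WT FLAG (12.8%, beside 13.3% of all genes), 6 in Sp1 DBD (5.5%, beside 7.14%) and 2 in EWS-Sp1 DBD (1.83%, beside 3.87%). CTRL mV5 had 6 (5.5%, beside 6.74%), and Sp1 WT rV5 and mV5 had 3 and 4 (2.75% and 3.67%, beside 5.15% and 5%). Sp1AD-LacI rV5 and mV5 had 9 and 5 (8.26% and 4.59%, beside 7.53% and 5.86%), and Sp1AD-CTCF DBD rV5 had 6 (5.5%, beside 6.45%). With only the 1332 strongest peaks of each list, the length of the shortest anti-V5 list, Sp1 WT FLAG and Sp1 DBD had 6 genes each (5.5%, beside 7.1% and 6.93%). EWS-Sp1 DBD had 2 (1.83%, beside 6.15%). Sp1AD-LacI rV5 and mV5 had 6 and 5 (5.5% and 4.59%, beside 7.2% and 6.88%), and Sp1AD-CTCF DBD rV5 had 7 (6.42%, beside 7.11%). The difference between Sp1 WT FLAG and Sp1 DBD in the number of genes was thus not seen at equal list length. Without genes that have a divergent neighbour, the counts were 15 of 64 in Sp1 WT FLAG (beside 20.1%) and 5 of 64 in Sp1AD-LacI mV5, by the smaller number of genes. Added after seeing the data, a promoter of 1000 bases before the start and 250 from it gave 31 respiratory genes with NRF-1 letters and 4 occupied (12.9%, beside 34.7%), while RefSeq promoters gave 1 of 20 and NRF-1 letters with both middle bases free 1 of 25.

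No paired analysis was possible because each list merges both replicates, and leaving out a replicate was not possible for the same reason. Depth limits what a missing peak shows: it was not detectable in that list. The assay is a further limit, since the paper reports that permeabilization during CUT&RUN released most Sp1 from the nucleus. By its imaging, Sp1 mut and Sp1AD-LacI colocalized with full-length Sp1 in cells, although CUT&RUN did not detect their binding.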
